A study of Mus musculus with 3 samples.

Results

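The metabotropic glutamate receptor genes *Grm2*, *Grm3*, *Grm4*, *Grm5*, *Grm7* and *Grm8* were followed through the cell types and neuron sub-types of the mouse lumbar spinal cord. These 6 genes were taken by symbol from the 31040 genes of the table of unique molecular identifiers (UMIs, 1 per captured transcript molecule), and the other genes of the family were not analysed here. Nuclei came from 12 mice at age 90 days, a peri-symptomatic stage of the model. The 6 SOD1G93A mice carried the high-copy human SOD1 transgene with the G93A change of the C57BL/6J line B6.Cg-Tg(SOD1*G93A)1Gur/J, and mice with an altered transgene copy number had been kept out of the study. The 6 wild-type (WT) mice were their non-transgenic littermates. Each genotype held 3 females and 3 males, and none was treated. Nuclei of each mouse were tagged with a hashtag and combined into 3 pools (A, B and C), each with 1 mouse per sex and genotype. The transgene is present in every cell of the animal, so a difference in 1 cell type need not come from the mutant protein in that cell type alone.

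Metabotropic glutamate receptors are G protein-coupled receptors that respond to glutamate more slowly than the ionotropic receptors do. *Grm5* (mGluR5) belongs to group I, which couples through Gq to phospholipase C and internal calcium release and sits mostly at the edge of the postsynaptic density. *Grm2* (mGluR2) and *Grm3* (mGluR3) form group II, and *Grm4* (mGluR4), *Grm7* (mGluR7) and *Grm8* (mGluR8) belong to group III. Both of these groups couple through Gi and Go to lower cyclic AMP, and they act largely on nerve terminals to restrain transmitter release. In the spinal cord mGluR5 is best known from the superficial dorsal horn, where it takes part in pain signalling, and mGluR3 is also found in glia, where N-acetylaspartylglutamate (NAAG) is an agonist. mGluR7 has a low affinity for glutamate and lies in the active zone.

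The table held 14662 nuclei and 206486779 UMIs, with 6411715 to 36668441 UMIs per mouse. UMIs were summed per mouse within each labelled cell type or sub-type and are given as counts per 1000000 UMIs of that sum (CPM), so a value is a share of the nuclear RNA captured in those nuclei. The label check rested on *Sod1*, whose log2 difference between SOD1G93A and WT nuclei was above 0 in the 9 cell types tested (1.01 to 3.85) and passed the test in 7 of them. Each labelled type other than the neurons held the highest level of its own marker list among the 10 types, but 4 types held more of another list, counting motor neurons as neurons. In the nuclei labelled microglia, the 3 microglial markers summed to 80.9 CPM, beside 2164 CPM for the 4 neuron markers (*Rbfox3*, *Snap25*, *Syt1*, *Grin1*) and 2374 CPM for the 3 oligodendrocyte markers. These nuclei were deep, with a median of 46927 UMIs against 12864.5 in neurons. In the nuclei labelled Schwann or meningeal, their own 3 markers summed to 126 CPM beside 4464 CPM for neuron and 5157 CPM for oligodendrocyte markers. In fibroblasts these were 428 CPM beside 599.6 and 1067 CPM. Astrocytes held 1433 CPM of their own markers, 1599 CPM of oligodendrocyte markers and 920 CPM of neuron markers, and oligodendrocytes held 853 CPM of neuron markers. Levels of the members in these glial nuclei are therefore given with and without a setting against neuron markers. Cell types and sub-types had been assigned by the study from expression in the same nuclei, so tests between them describe the spread over mice and not an independent sorting of cells.

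*Grm7* and *Grm5* were the members with the highest counts in the neurons, a pooled class of 8800 nuclei without the motor neurons. *Grm7* reached 3086 CPM ± 166 (SD, n = 12 mice), with a lowest mouse at 2808, a median of 3120 and a highest mouse at 3286 CPM. *Grm5* reached 2666 CPM ± 261, from 2287 through a median of 2576 to 3053 CPM. *Grm8* stood at 480 CPM ± 60.95 and *Grm3* at 261 CPM ± 24.3. *Grm4* was lower, at 27.3 CPM ± 3.58, and *Grm2* was near the limit of detection at 1.09 CPM ± 0.405, from 142 UMIs in all neurons. No mouse departed from this order of the members by level in neurons. Because intronic reads were counted, long genes gather more UMIs, and the members differ in length. *Grm2* spans 12.99 kb on chromosome 9 (GRCm38, chr9:106643095-106656082, minus strand), and *Grm7* spans 922 kb on chromosome 6 (chr6:110645581-111567230, plus strand). Between them lie *Grm4* with 99.0 kb (chr17:27422387-27521403, minus strand), *Grm3* with 240 kb (chr5:9485541-9725170, minus strand), *Grm5* with 551 kb (chr7:87584168-88134907, plus strand) and *Grm8* with 860 kb (chr6:27275119-28135178, minus strand). Per 100 kb of gene span, the neuronal level was 484 CPM for *Grm5*, 335 for *Grm7*, 109 for *Grm3*, 55.8 for *Grm8*, 27.6 for *Grm4* and 8.37 for *Grm2*. On this length scale *Grm5* stood above *Grm7*, and *Grm3* above *Grm8*, the reverse of the order in CPM.

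Most neurons held transcripts of several members at once. Of the 8800 neuron nuclei, 3470 (39.4%) had at least 1 UMI of exactly 4 members, 1357 had 5, 22 had all 6 and 4 had none. A *Grm7* UMI was found in 99.0% of neuron nuclei and a *Grm5* UMI in 97.5%. After nuclei had been thinned to 2000 UMIs, which left out 97 shallower neurons and 17 endothelial nuclei, these shares were 94.4% and 91.1%. At the same thinned depth, *Grm8* was found in 38.6%, *Grm3* in 28.2%, *Grm4* in 4.46% and *Grm2* in 0.255% of neurons. Free RNA in droplets can add UMIs to nuclei that do not express a gene. As a comparison, endothelial nuclei, which form no synapses, carried *Grm8* in 4.52%, *Grm5* in 27.3%, *Grm7* in 65.2% and *Grm3* in 42.1% at this depth. The last was above the share in neurons. Whether endothelial nuclei transcribe these genes themselves was not tested, so these shares are not a measure of free RNA.

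**Figure D1:**
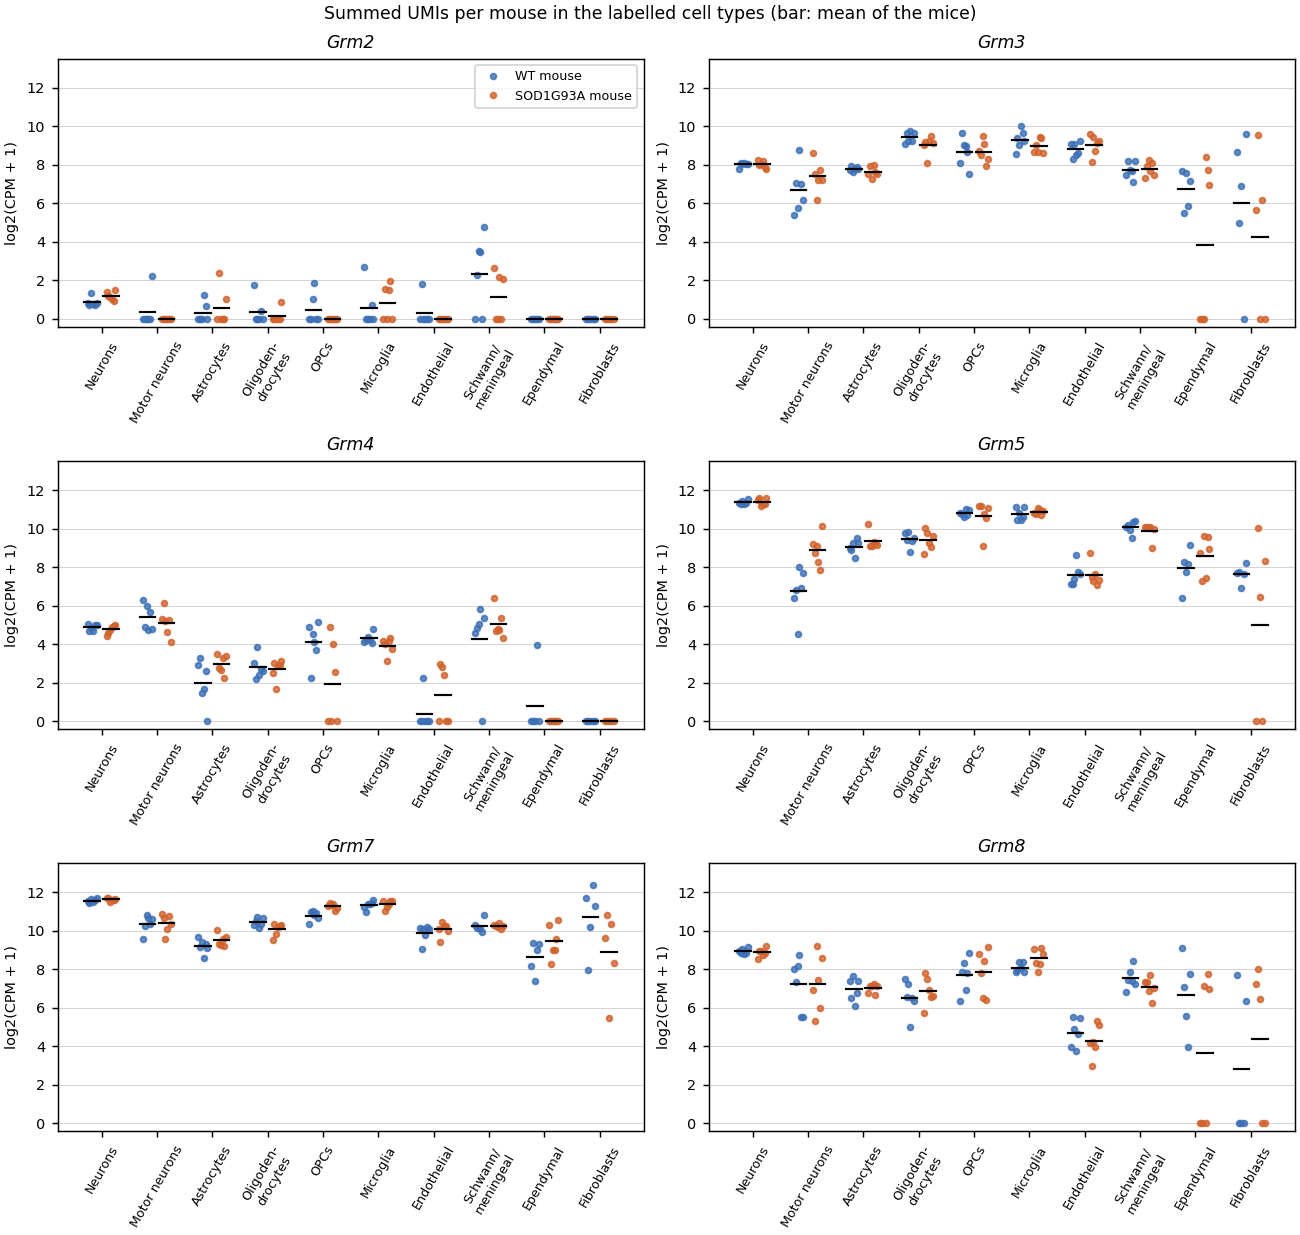
Level of each member in the 10 labelled cell types, as log2(CPM + 1) per mouse (points, WT in blue and SOD1G93A in orange) with the mean of the mice of a genotype (bars). *Grm5*, *Grm7* and *Grm8* were highest in neurons, *Grm3* was highest in oligodendrocytes at a mean of 625.3 CPM, and *Grm2* stayed at or below a mean of 5.23 CPM in every type.

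Of the group I receptor, neurons held the most. *Grm5* averaged 2666 CPM in neurons and 1814 CPM ± 290 in the nuclei labelled microglia, followed by 1771 CPM ± 469 in OPCs. Next came nuclei labelled Schwann or meningeal (1033), oligodendrocytes (711), astrocytes (612), ependymal nuclei (384), motor neurons (332), fibroblasts (249) and endothelial nuclei (207). In an exact sign-flip permutation test over mice, two-sided and adjusted over the 102 neighbouring pairs of all members, the neurons exceeded the next type (adjusted p = 0.00623). OPCs exceeded the Schwann or meningeal nuclei (0.0383), and these exceeded the oligodendrocytes (0.0166). The other neighbours in the order of *Grm5* did not pass. Motor neurons, which degenerate in this model, were thus among the types with little *Grm5*, while other neurons had the most.

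*Grm3*, the group II receptor, had another order. Oligodendrocytes averaged 625.3 CPM ± 160, from 275 through 601 to 869 CPM in the 12 mice. The nuclei labelled microglia (591), endothelial nuclei (510) and OPCs (444) came next, and no neighbouring pair among these types passed the test. Neurons followed at 261 CPM and were below the OPCs (exact permutation test, adjusted p = 0.0374). Below neurons stood the nuclei labelled Schwann or meningeal (224), fibroblasts (221), astrocytes (212), motor neurons (169) and ependymal nuclei (120), with no neighbouring pair past the test. Of the other group II gene, *Grm2*, 142 of the UMIs were in neurons, 12 each in the nuclei labelled microglia and Schwann or meningeal, 7 in astrocytes and at most 4 in any other type. No *Grm2* UMI was found in ependymal nuclei or fibroblasts, and a count of 0 allows up to 11.9 and 13.97 CPM there (3 counts over the summed UMIs of all mice, for counting error only).

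Among the group III receptors, *Grm7* followed *Grm5* in having its highest level in neurons. It averaged 2632 CPM in the nuclei labelled microglia, 2126 in OPCs, 1660 in fibroblasts, 1382 in motor neurons, 1239 in oligodendrocytes, 1210 in Schwann or meningeal nuclei, 1041 in endothelial nuclei, 669 in astrocytes and 642 in ependymal nuclei. Neurons exceeded the next type (exact permutation test, adjusted p = 0.00623), and endothelial nuclei exceeded astrocytes (0.0199). *Grm8* had 480 CPM in neurons against 333 in the nuclei labelled microglia (0.0462) and 264 in OPCs, and from there fell from type to type without a neighbouring difference past the test to 24.6 CPM in endothelial nuclei. *Grm4* was the member for which motor neurons stood first, at 40.7 CPM ± 19.3, with 16.3 in the lowest mouse, 36.5 at the median and 77.1 in the highest. Schwann or meningeal nuclei had 32.9 CPM and neurons 27.3, and neither of these first 2 steps passed the test. Neurons exceeded the nuclei labelled microglia, at 16.7 CPM (0.00623). *Grm4* was listed with no UMI in fibroblasts, where a count of 0 allows 13.97 CPM.

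**Figure D2:**
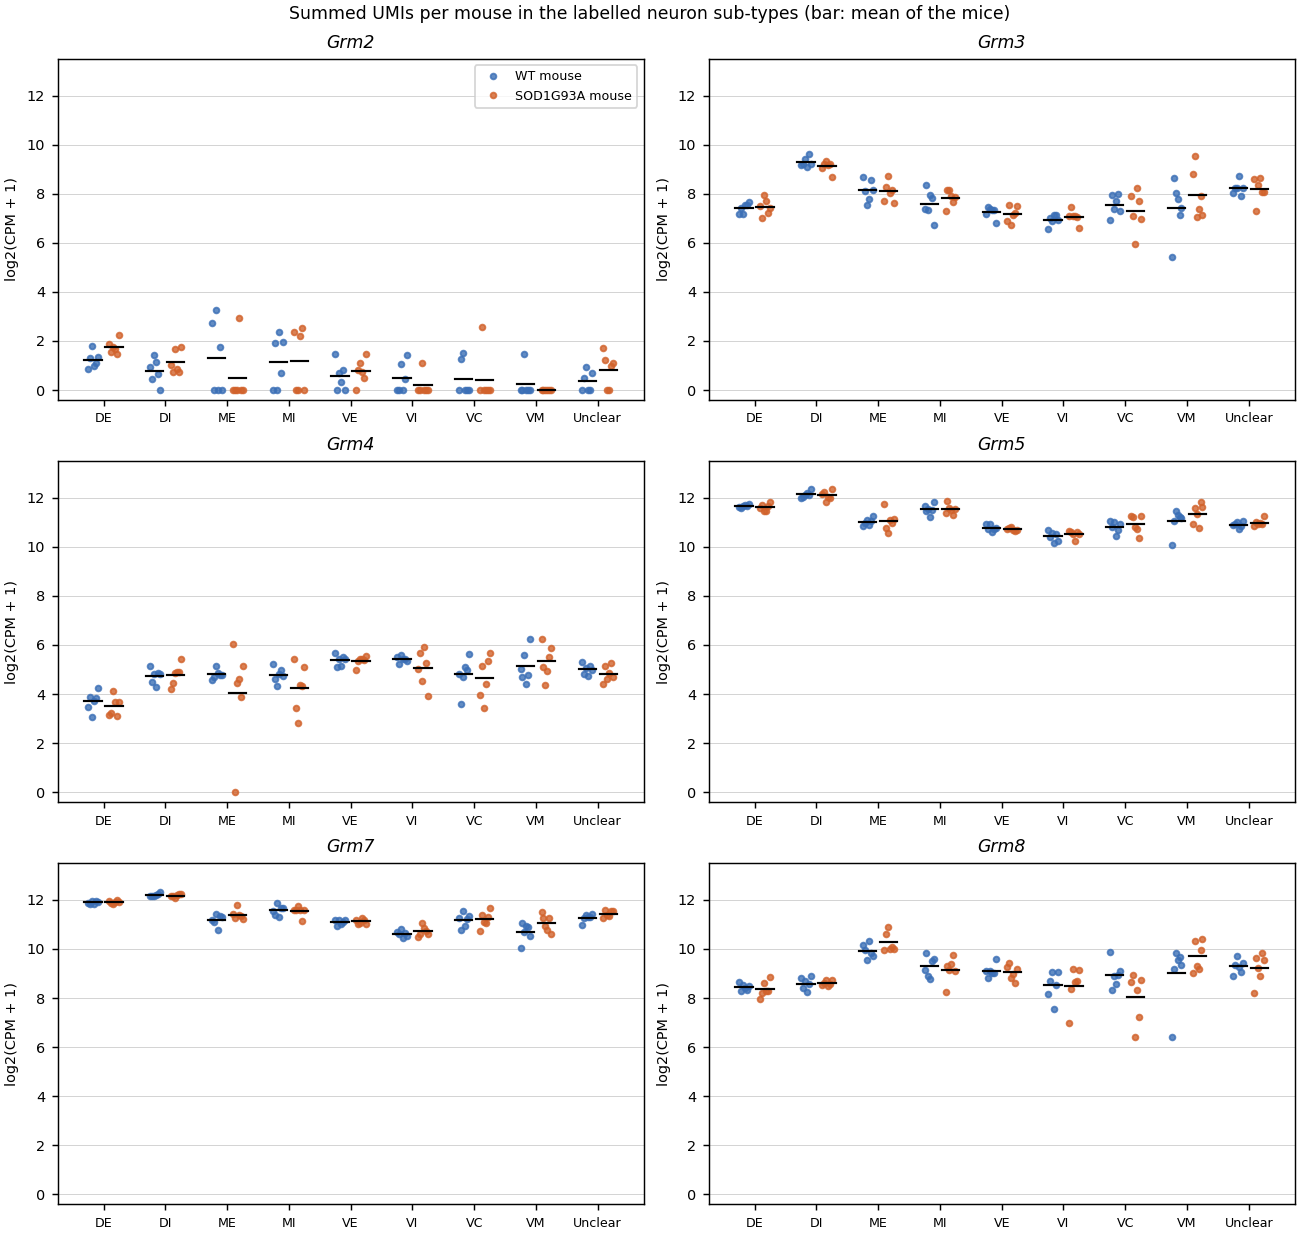
Level of each member in the 9 neuron sub-types, as log2(CPM + 1) per mouse (points, WT in blue and SOD1G93A in orange) with genotype means (bars). D, M and V mark dorsal, mid and ventral, E and I excitatory and inhibitory, VC ventral cholinergic without motor neurons and VM ventral mixed. The dorsal inhibitory neurons (DI) had the highest mean of *Grm3* (599 CPM), *Grm5* (4479 CPM) and *Grm7* (4692 CPM), and mid excitatory neurons (ME) the highest of *Grm8* (1131 CPM).

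Within neurons the members split by position in their share of the UMIs. Dorsal inhibitory neurons (DI) held the most *Grm5*, *Grm7* and *Grm3*. *Grm5* reached 4479 CPM ± 495 there, from 3675 through 4478 to 5302 in the 12 mice, against 3212 in dorsal excitatory neurons (DE) and 1433 in ventral inhibitory neurons (VI). *Grm7* stood at 4692 CPM ± 217 in DI, 3840 in DE and 1643 in VI. Both steps from DI to DE passed the exact permutation test (adjusted p = 0.00623 each), as did DE over mid inhibitory neurons (MI) for *Grm7* and ventral excitatory neurons (VE) over VI for *Grm5*. *Grm3* was the most uneven of these, with 599 CPM ± 90.9 in DI and 305 CPM ± 74.7 in the sub-type called unclear, which came next (0.00623). The lowest DI mouse, at 415 CPM, had a higher *Grm3* level than the highest mouse of DE (245), VE (184) or VI (177).

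*Grm8* and *Grm4* were placed differently. *Grm8* averaged 1131 CPM ± 329 in ME, with 758, 1025 and 1930 CPM in the lowest, median and highest mouse, followed by 764 CPM in VM. DI and DE held the least, at 390 and 344 CPM, and no neighbouring pair of *Grm8* passed the test. *Grm4* was at 40.6 CPM in VE, 40.4 in VM and 38.8 in VI, and at 11.5 CPM ± 3.42 in DE, below the next lowest sub-type, MI, at 24.4 (exact permutation test, adjusted p = 0.0498). *Grm2* was at or below 1.94 CPM in every sub-type, with 63 of its UMIs in DE at 1.91 CPM against 1.04 CPM in DI (0.0272). Of all 102 neighbouring pairs 15 passed. With the 6 WT mice alone none passed, where the smallest unadjusted p that 6 mice allow is 0.03125.

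**Figure D3:**
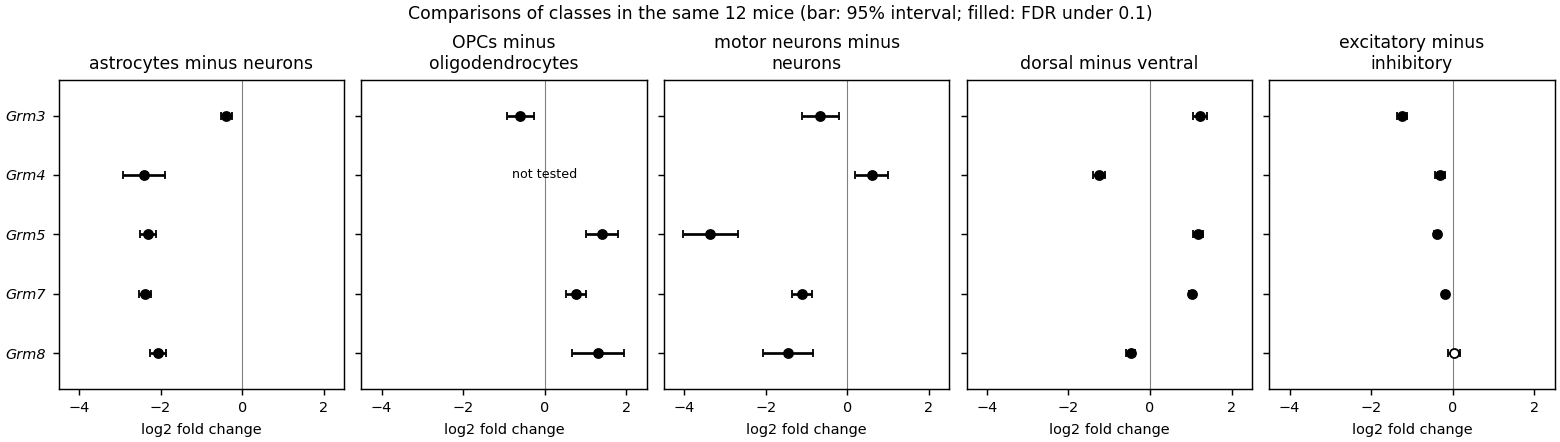
Log2 fold change of each member between classes of nuclei of the same 12 mice (limma-voom fit, points, with 95% intervals; filled points passed FDR < 0.1). *Grm5* and *Grm7* were on the dorsal side and *Grm4* and *Grm8* on the ventral side of the dorsal-ventral comparison, and *Grm4* was the member above 0 in motor neurons against other neurons.

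In the comparison of dorsal with ventral neurons, excitatory and inhibitory together, all 5 members tested passed FDR < 0.1, in opposite directions. DE and DI together held 334 CPM of *Grm3* against 144 in VE and VI, a log2 difference of 1.22 (SE 0.08). The difference was 1.17 (SE 0.05) for *Grm5*, with 3689 against 1645 CPM, and 1.03 (SE 0.03) for *Grm7*, with 4158 against 2064 CPM. All 12 mice were higher dorsally for each of these. *Grm4* ran the other way, with 17.1 CPM dorsally and 40.2 ventrally (log2 difference -1.25, SE 0.07), and so did *Grm8*, with 362 against 511 CPM (-0.47, SE 0.05), again in 12 of 12 mice. Over all 12496 genes tested, 35% were called higher dorsally and 36.8% lower, so a call is common in this comparison, and the members are told apart by size and direction. Not every call held within a class. *Grm3* was 2.27 higher dorsally among inhibitory neurons but 0.23 among excitatory neurons (FDR = 0.136), and *Grm8* was at -0.63 among excitatory and 0.018 among inhibitory neurons (FDR = 0.914).

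Excitatory and inhibitory neurons differed in 4 of 5 members. *Grm3* had 169 CPM in DE, ME and VE together and 395 CPM in DI, MI and VI, a log2 difference of -1.23 (SE 0.06). *Grm5* (-0.39, SE 0.03), *Grm4* (-0.31, SE 0.06) and *Grm7* (-0.19, SE 0.02) were also lower in excitatory neurons. *Grm8* did not pass, at 0.05 (95% interval -0.10 to 0.19, FDR = 0.708). Of all genes 13.7% were called higher in excitatory and 15.1% lower. These pooled values joined dorsal, mid and ventral neurons, and the dorsal and ventral ones did not move alike. Dorsally, *Grm3* was lower in DE than in DI by a mean log2 of -1.77 ± 0.33 (SD, 12 of 12 mice), while ventrally VE stood 0.19 ± 0.37 above VI (9 of 12 mice higher). *Grm5* was lower in DE than DI in 12 of 12 mice (-0.48 ± 0.09) and higher in VE than VI in 12 of 12 (0.28 ± 0.15). *Grm7* did the same at -0.29 ± 0.06 and 0.44 ± 0.18, with 1 mouse apart ventrally. *Grm4* was lower in DE than DI in 12 of 12 mice (-1.17 ± 0.48), but ventrally 6 mice were higher and 6 lower (0.13 ± 0.59), and the limma difference among ventral neurons was -0.032 (FDR = 0.926). The dorsal minus the ventral contrast was -1.96 for *Grm3*, -1.30 for *Grm4*, -0.75 for *Grm5* and -0.73 for *Grm7* (exact sign-flip permutation test over mice, adjusted p = 0.00061 each, with p at 0.000488 the smallest that 12 mice allow). For *Grm8* it was -0.76 (adjusted p = 0.00488), with 10 of 12 mice in that direction. This test was added after the values had been seen.

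Motor neurons, 67 nuclei with 1 to 11 per mouse, stood apart from the other neurons in all 5 members tested. *Grm5* was 332 CPM against 2666, a log2 difference of -3.37 (SE 0.31), lower in 12 of 12 mice. *Grm8* (-1.46, SE 0.29), *Grm7* (-1.12, SE 0.12) and *Grm3* (-0.66, SE 0.22) were lower as well, in 11, 12 and 10 of 12 mice. *Grm4* was higher by 0.60 (SE 0.20), in 9 of 12 mice. Over all genes 21.8% were called higher and 18.2% lower in motor neurons. When fitted in the mice of 1 genotype, 6 mice each, the *Grm5* difference was -4.16 in WT and -2.59 in SOD1G93A mice, past the threshold in both. The *Grm3* difference was -0.71 in WT (FDR = 0.152) and -0.48 in SOD1G93A mice (FDR = 0.133) and passed in neither, and that of *Grm4* was 0.73 in WT (FDR = 0.0344) and 0.37 in SOD1G93A mice (FDR = 0.465). Motor neuron nuclei were deep, with a median of 53245 UMIs against 12864.5 in other neurons. In nuclei thinned to 2000 UMIs a *Grm5* UMI was found in 25.2% of motor neurons and 91.1% of other neurons, and a *Grm4* UMI in 8.45% and 4.46%.

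Of the glial comparisons, astrocytes were lower than neurons in all 5 members tested, in 12 of 12 mice each. *Grm3* differed least, at 212 against 261 CPM (log2 difference -0.39, SE 0.06). The others differed by -2.06 (*Grm8*), -2.31 (*Grm5*), -2.38 (*Grm7*) and -2.41 (*Grm4*), and 37.9% of all genes were called lower and 40.3% higher in astrocytes. Across the oligodendrocyte lineage, OPCs were above oligodendrocytes in *Grm5* (1771 against 711 CPM, log2 difference 1.399, SE 0.19), *Grm8* (264 against 114, 1.31, SE 0.30) and *Grm7* (2126 against 1239, 0.77, SE 0.12), and below in *Grm3* (444 against 625.3, -0.60, SE 0.16). *Grm5* was higher in OPCs of 11 of 12 mice and *Grm3* lower in 10 of 12. Of all genes 28% were called higher in OPCs and 23.6% lower. OPCs also held more neuron-marker UMIs than oligodendrocytes, 1459 against 853 CPM.

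**Figure D4:**
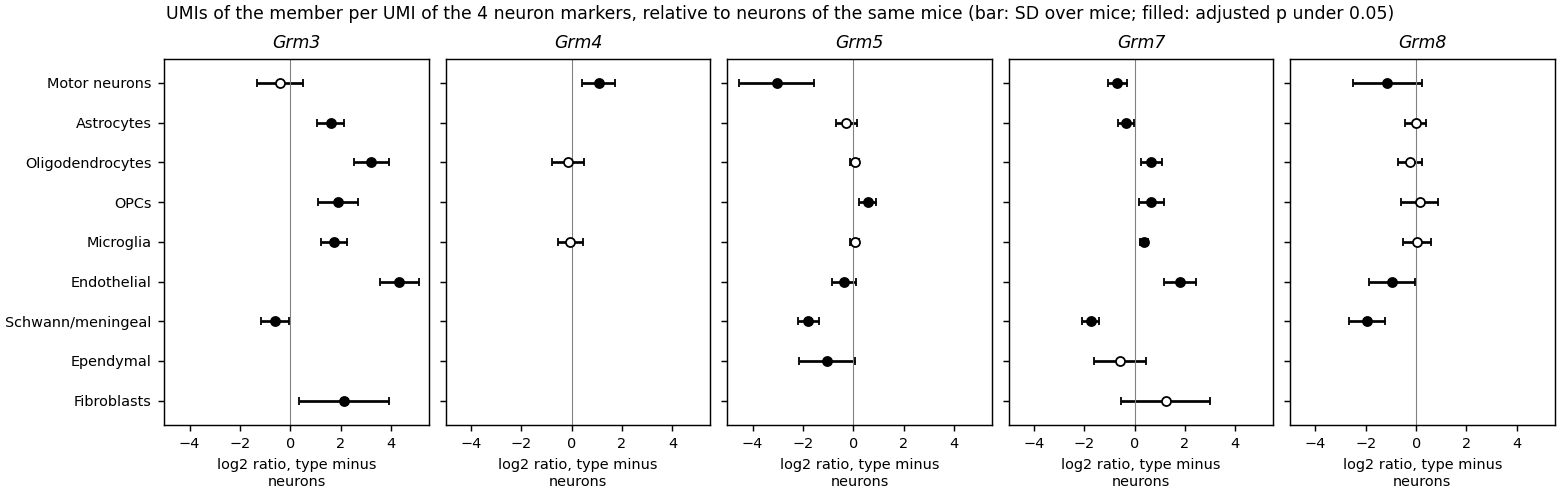
UMIs of a member per UMI of the 4 neuron markers in each cell type, relative to neurons of the same mice (mean log2 ratio, bars are the SD over mice; filled points passed the exact permutation test at an adjusted p under 0.05). *Grm3* lay right of 0 in oligodendrocytes, OPCs, astrocytes and endothelial nuclei, while *Grm5* and *Grm8* lay near 0 in the nuclei labelled microglia and in oligodendrocytes.

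Set against neuron markers, *Grm3* was above its neuronal proportion in most non-neuronal types. This comparison was added after the values had been seen. It divided the UMIs of a member by those of the 4 neuron markers in the same nuclei, and 1 means the proportion found in neurons. The proportions printed pool the UMIs of all mice, while the test used the mean of the log2 ratios of single mice. For *Grm3* the proportion was 19.3 times that of neurons in endothelial nuclei, 10.4 times in oligodendrocytes, 4.18 times in the nuclei labelled microglia, 3.91 times in OPCs and 3.14 times in astrocytes, with 12 of 12 mice higher in each (exact permutation test, adjusted p = 0.00122). In fibroblasts it was 6.53 times (mean log2 ratio over mice 2.14 ± 1.79), higher in 8 of the 10 mice with such nuclei (0.0137). Oligodendrocyte markers were not set against here. They summed to 6149 CPM in oligodendrocytes, 2374 in the nuclei labelled microglia and 2054 in OPCs. Astrocytes held 1599, fibroblasts 1067 and endothelial nuclei 440 CPM. The part of oligodendrocyte RNA in these *Grm3* proportions was not tested. *Grm8* stood at 0.967 in astrocytes, 1.03 in the nuclei labelled microglia and 0.899 in oligodendrocytes, and *Grm5* at 0.843, 1.02 and 1.07 in the same types, none past the test. *Grm5* in OPCs, at 1.51 times, was above the neuronal proportion in 12 of 12 mice (0.00122), and so was *Grm7*, at 1.53 times in OPCs, 3.50 times in endothelial nuclei and 1.34 times in the nuclei labelled microglia. In oligodendrocytes *Grm7* was at 1.73 times, higher in 11 of 12 mice (0.00214). Some proportions lay below that of neurons. *Grm7* was at 0.786 in astrocytes, lower in 11 of 12 mice (0.00302), and in the Schwann or meningeal nuclei *Grm7* was at 0.285 (12 of 12 mice lower, 0.00122) and *Grm3* at 0.602 (11 of 12 mice lower, 0.0123). *Grm5* was at 0.268 and *Grm8* at 0.243 in these nuclei, each lower in 12 of 12 mice (0.00122). In motor neurons *Grm4* was at 2.01 times (0.00214) and *Grm5* at 0.153 times (0.00122). *Grm3*, called lower there in CPM, was at 0.955 of its neuronal proportion in pooled UMIs, with 4 mice higher and 8 lower. The mean log2 ratio over mice, which was tested, was -0.40 ± 0.92 (0.204). A single WT nucleus held 168 of the 691 *Grm3* UMIs of motor neurons. Of 35 such comparisons, 12 passed as higher and 11 as lower than in neurons. The ratio was not taken for all genes, so these counts have no baseline. The 4 markers were chosen as neuronal and summed to 3322 CPM in neurons against 326 CPM in endothelial nuclei. A gene not confined to neurons therefore tends to lie above 1 in other types.

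The glial nuclei without any neuron-marker UMI gave a further view. In 237 such astrocytes *Grm3* was at 205 CPM, close to the 212 CPM of all astrocytes, while *Grm5* was at 285 CPM instead of 612 and *Grm7* at 299 instead of 669. In 401 such oligodendrocytes *Grm3* was at 516 CPM instead of 625.3, *Grm5* at 215 instead of 711 and *Grm7* at 679 instead of 1239. OPCs left 10 nuclei from 7 mice, with *Grm5* at 2341 CPM ± 1181. Of the SOD1G93A mice, only the male of pool B had such an OPC nucleus (1), and the rest came from WT mice. In nuclei without neuron-marker UMIs, the *Grm7* difference between OPCs and oligodendrocytes was -0.05 (FDR = 0.948). Over all nuclei it had been 0.77, with 0.38 in WT and 1.16 in SOD1G93A mice fitted alone. Nuclei without neuron-marker UMIs are also the shallower ones, and the part of depth in these values was not tested. Oligodendrocyte markers played no part in this choice of nuclei.

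Between genotypes, no member passed FDR < 0.1 in any cell type (0 of 41 tests by limma-voom) or neuron sub-type (0 of 44), where 0.568% of all gene and cell type pairs and 0.0252% of gene and sub-type pairs were called. At an unadjusted p under 0.05 there were 8 of 41 and 3 of 44, where 7.18% and 4.54% of all pairs were, and edgeR called 0 and 0, DESeq2 1 and 0. In pooled sums, fewer transcribing nuclei and less RNA per nucleus cannot be told apart. In the neurons, the type with the most UMIs summed over its nuclei, the intervals were narrow. The log2 difference, SOD1G93A minus WT, was 0.01 for *Grm5* (95% interval -0.19 to 0.21), 0.04 for *Grm7* (-0.12 to 0.20), -0.02 for *Grm3* (-0.18 to 0.14), -0.08 for *Grm8* (-0.25 to 0.08) and -0.10 for *Grm4* (-0.32 to 0.11). *Grm2* was at 0.644 to 1.53 CPM in WT and 0.894 to 1.84 CPM in SOD1G93A mice (0.56, 95% interval 0.01 to 1.11, FDR = 1).

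**Figure D5:**
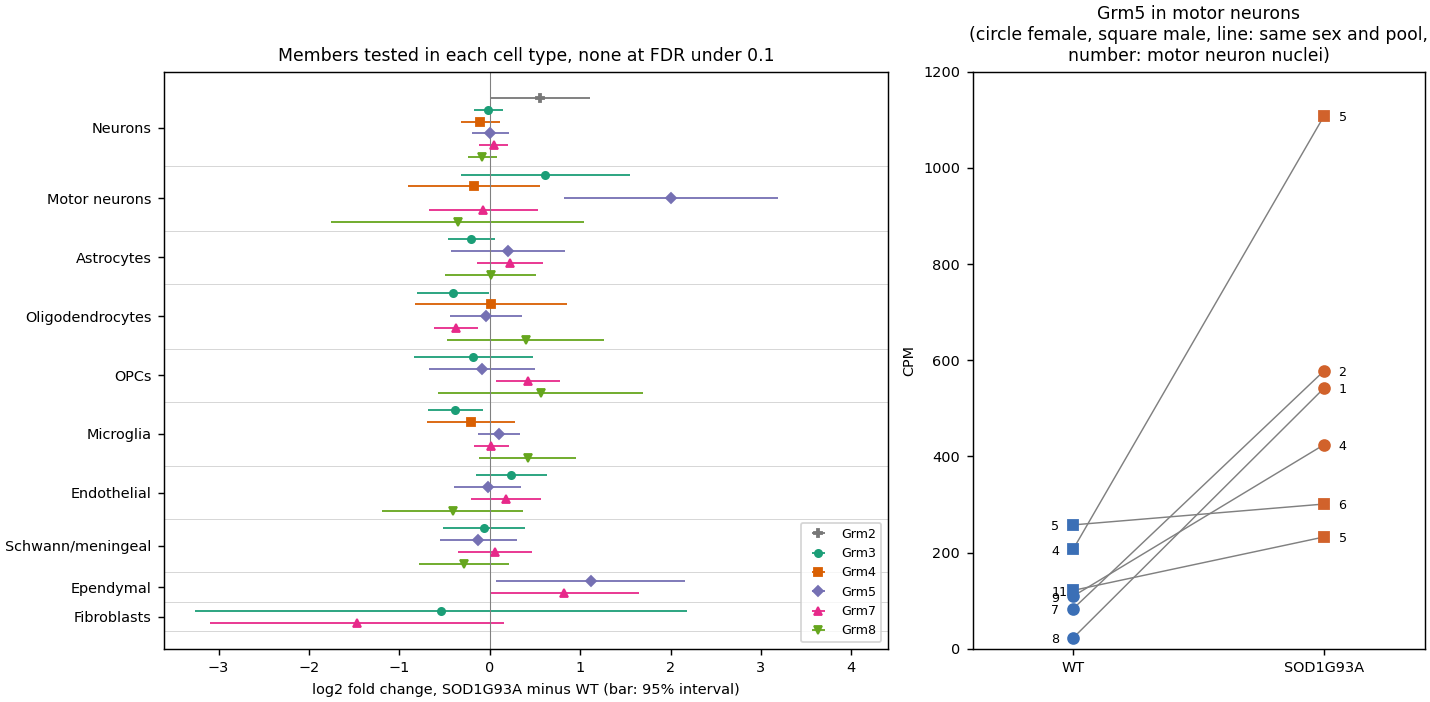
Left, log2 difference between SOD1G93A and WT mice for every member tested in each cell type, with 95% intervals. Right, *Grm5* CPM in the motor neurons of each mouse, with lines joining the WT and SOD1G93A mouse of the same sex and pool and the number of motor neuron nuclei beside each point. All 6 lines rise, from 22.3 to 258 CPM in WT to 233 to 1109 CPM in SOD1G93A mice, on 1 to 11 nuclei per mouse.

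*Grm5* in motor neurons had the largest log2 difference between genotypes among the members tested. In WT mice it was at 83.1, 109 and 22.3 CPM in the females of pools A, B and C and at 258, 121 and 207 CPM in the males. In SOD1G93A mice it was at 578, 425 and 542 CPM in the females and at 301, 233 and 1109 CPM in the males. The SOD1G93A mouse was higher in 6 of 6 pairs of the same sex and pool, and the groups overlapped by 1 mouse on each side. The log2 difference was 2.01 (SE 0.51, 95% interval 0.82 to 3.19, limma FDR = 0.119) and so did not pass the threshold. It rested on 340 UMIs in 44 WT nuclei and 750 UMIs in 23 SOD1G93A nuclei. A *Grm5* UMI was found in 34 WT and 21 SOD1G93A nuclei. The median nucleus was at 57.3 CPM in WT and 199.7 CPM in SOD1G93A mice, and the highest at 644 and 2363 CPM. Nuclei of 1 mouse are not replicates of a genotype, so these values are a description. The SOD1G93A male of pool C gave 341 of the 750 UMIs from 5 nuclei. A single nucleus gave 26.8% of the WT and another 18.4% of the SOD1G93A *Grm5* UMIs. The median depth was 43895 UMIs in WT and 60146 in SOD1G93A nuclei. The SOD1G93A female of pool C had a single motor neuron nucleus. The neuron markers in motor neurons summed to 2156 to 2405 CPM in WT and 2097 to 2702 CPM in SOD1G93A mice, and the inhibitory markers to 0 to 49.8 CPM (median 6.55) and 0 to 102.9 CPM (median 44.5). The oligodendrocyte markers there summed to 52.6 to 686 CPM in WT (median 180) and 81.5 to 527 CPM in SOD1G93A mice (median 453). Their part in the *Grm5* difference was not tested. The choice of tool and of mice decided the call. DESeq2 gave FDR = 0.000937, edgeR 0.132 and limma without the robust option 0.0156, and leaving out each mouse in turn gave FDR from 0.0312 to 0.284, below 0.1 without the WT female of pool B, the WT female of pool C or the SOD1G93A male of pool C.

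The other differences with an unadjusted p under 0.05 were smaller and had FDR of 0.459 or more. They included *Grm5* (1.11, SE 0.52) and *Grm7* (0.83, SE 0.41) in ependymal nuclei, of which there were 93, from 11 mice. The neuron markers there had a median of 914 CPM in WT and 1396 CPM in SOD1G93A mice and the oligodendrocyte markers 1199 and 1962 CPM, and their part in these differences was not tested. In oligodendrocytes *Grm7* was at 1112 to 1651 CPM in WT and 729 to 1293 CPM in SOD1G93A mice (log2 difference -0.38, SE 0.11, FDR = 0.875), and *Grm3* at 547 to 869 and 275 to 738 CPM (-0.41, SE 0.18, FDR = 1). Both genes also differed in level between the oligodendrocyte sub-clusters given further below, whose part in these differences was not tested. In OPCs *Grm7* was at 1279 to 2070 CPM in WT and 2102 to 2784 CPM in SOD1G93A mice. Its difference of 0.42 (SE 0.17) had an FDR of 0.695, in a type where 0.0411% of all genes were called. There 311 of 4868 genes had an unadjusted p under 0.05. The SOD1G93A female of pool C had 2 OPC nuclei with 11083 UMIs in all. The neuron markers in OPCs had a median of 1345 CPM in WT and 1651 CPM in SOD1G93A mice. Their part in the *Grm7* difference was not tested. In the nuclei labelled microglia *Grm3* differed by -0.38 (SE 0.14, FDR = 0.459), and without the WT female of pool A the difference was -0.51 with FDR = 0.0296. The microglial markers there were at 46.6 to 91.2 CPM in WT (median 57.5) and 38.8 to 122 CPM in SOD1G93A mice (median 110), and their part was not tested. Some differences with a larger p turned on 1 mouse or stood beside a difference in markers. In motor neurons *Grm3* differed by 0.62 (SE 0.41, FDR = 0.528), which became 1.00 with FDR = 0.0901 without the WT male of pool A, in which a single nucleus held 168 of the 200 *Grm3* UMIs of its motor neurons. In astrocytes *Grm3* was at 197 to 249 CPM in WT and 151 to 251 CPM in SOD1G93A mice (-0.21, SE 0.13, FDR = 0.487). The astrocyte markers (*Aqp4*, *Aldh1l1*, *Gfap*) in these nuclei summed to 867 to 1122 CPM in WT and 1672 to 2225 CPM in SOD1G93A mice. The paper reports *Gfap* as differing between genotypes in astrocytes, so this sum is not a measure of cell content alone. Its part in the *Grm3* difference was not tested. Among the sub-types *Grm7* in VM differed by 0.35 (SE 0.15, FDR = 0.998).

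Sex was compared in the same fits, averaged over genotypes. No member passed in the 41 tests in cell types (limma, 3 at an unadjusted p under 0.05; edgeR and DESeq2 0 called and 4 each), with 0.159% of all pairs called and 5.56% at that p. *Grm3* in the nuclei labelled microglia came nearest, with a female minus male log2 difference of -0.50 (SE 0.14, FDR = 0.293). The genotype difference was not called as differing between the sexes for any member (limma, 0 called and 2 at an unadjusted p under 0.05; edgeR and DESeq2 0 called and 1 each), with 0.0058% of all pairs called and 3.11% at that p. For *Grm5* in motor neurons the interaction, the difference in males minus that in females, was -1.95 (FDR = 0.978), and in endothelial nuclei it was -1.29 (SE 0.36, FDR = 1.00).

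The partners through which the receptors act were read from a list of 40 genes. In dorsal against ventral neurons 28 of 36 tested were higher and 1 lower, where 35% and 36.8% of all genes were, with a median log2 difference of 0.37 beside -0.01 for all genes. The highest were *Elfn1* (1.36), whose product binds group III receptors across the synapse, *Rimklb* (1.35), a NAAG synthetase, and *Kcnj9* (1.31), a subunit of G protein-gated potassium channels. *Grip1* (-1.56), a scaffold of glutamate receptors, was the member of the list called lower. In excitatory against inhibitory neurons 8 of 36 were higher and 11 lower (13.7% and 15.1% of all genes, median -0.04). *Elfn1* (1.23) and *Itpr1* (0.97), an internal calcium channel, were among the highest, and at the other end stood the adenylyl cyclase gene *Adcy8* (-0.91), the phospholipase gene *Plcb1* (-0.88) and *Dlgap1* (-0.67). In motor neurons against other neurons 7 of 33 were higher and 14 lower (21.8% and 18.2% of all genes, median -0.13 beside 0.02 for all genes). *Kcnj6* (-1.53) and *Homer2* (-1.41), which encodes a scaffold of group I receptors, were among the lowest, and *Grip1* (1.54), *Plcb1* (0.97) and *Itpr1* (0.89) were highest.

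The same list was read in glia. Against neurons, 13 of 36 genes were higher in astrocytes and 19 lower (40.3% and 37.9% of all genes, median -0.57 beside 0.02 for all genes). *Folh1*, which encodes the enzyme that cleaves NAAG, was 4.22 higher on the log2 scale, *Rimklb* 2.86 and *Homer3* 2.74, while *Kcnj6* (-2.71) and *Grip1* (-2.12) were among the lowest. In OPCs against oligodendrocytes 16 of 26 were higher and 4 lower (28% and 23.6% of all genes, median 0.82 beside 0.02). These were led by *Kcnj6* (1.65), *Shank2* (1.61) and *Dlgap1* (1.47), of which the latter encode postsynaptic scaffold proteins. At the other end stood *Gnai1* (-1.09), *Folh1* (-1.06) and *Gnao1* (-0.95). The neuron markers summed to 1459 CPM in OPCs and 853 CPM in oligodendrocytes, and their part in these differences was not tested. Between genotypes 3 of 247 tests of list genes passed in cell types and 0 of 264 in sub-types (the list was counted with limma alone). Of all pairs 0.568% and 0.0252% were called. In the sub-types 13 of the 264 had an unadjusted p under 0.05, where 4.54% of all pairs did. The 3 that passed were 2 of 25 in motor neurons, where 3.07% of all genes were called, and 1 of 31 in astrocytes, where 2.29% were. *Grip1* fell in SOD1G93A motor neurons by 1.07 on the log2 scale (SE 0.18, FDR = 0.00929), and *Plcb4* fell there by 0.66 (SE 0.19, FDR = 0.0860). The OPC markers in these motor neurons were at 1058 to 1642 CPM in WT (median 1417) and 804 to 1251 CPM in SOD1G93A mice (median 1081), and the inhibitory and oligodendrocyte markers had higher medians in SOD1G93A mice, as given above. Their part in both differences was not tested. *Homer2* fell in astrocytes by 0.72 (SE 0.19, FDR = 0.0653). The astrocyte markers, with *Gfap* among them, were higher in all SOD1G93A than in all WT mice, as given above. The astrocyte sub-cluster numbered 1 held 37.2% of the 927 WT and 14.8% of the 628 SOD1G93A nuclei. Their part in the *Homer2* difference was not tested.

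The genes most like each member were found by Pearson's r of log2(mean CPM + 1) over 16 cell types and sub-types among 11788 genes. These units share mice, and the sub-types share their neuronal origin, so r is a description. *Grm5* was closest to *Plppr1* (0.979), *Sidt1* (0.973) and *Trank1* (0.970), *Grm8* to *St6galnac5* (0.979), *Aff2* (0.966) and *Cntn4* (0.964), and *Grm4* to *Cacng2* (0.982), *Gpat3* (0.978) and *Scn8a* (0.969). *Grm7* had *Gm42456* (0.925), *Cacna1c* (0.911) and *Kcnj6* (0.908). The nearest profiles to *Grm3* were less close, *Rftn1* (0.851), *Ptprk* (0.839) and *Arhgef2* (0.835). *Grm2* lay below 5 CPM on average and was not compared.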

How the data were processed

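Single-nucleus libraries had been sequenced, demultiplexed (bcl2fastq 2.20.0.422), aligned with STAR 2.5.1b and counted in Cell Ranger 3.1 by the authors on a pre-mRNA reference of mm10, so intronic reads were included. The authors deposited raw UMI counts per gene and nucleus, together with cell type and sub-type labels from Seurat 4.0.3 (R 4.0.3). Nuclei under 200 genes, over 10% mitochondrial or with an ambiguous hashtag had been removed. A hashtag finds doublets of 2 mice only, so doublets within a mouse were not marked here, and 15 barcode sequences occurred in more than 1 pool (30 nuclei). A deposited integrated table was not used.

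Counts were summed per mouse and type and fitted with limma-voom (limma 3.58.1, edgeR 4.0.16, R 4.3.3; TMMwsp factors, filterByExpr with a minimum count of 10, sex-by-genotype groups plus pool, robust eBayes) across all genes, with Benjamini-Hochberg adjustment per type and FDR < 0.1. Classes were compared with the mouse as a block. The pool was a term of the fit because the labels name pools as batches. Mice of the same pool deviated together in neurons (median r = 0.395 over 18 pairs, from -0.436 to 0.733). The median was -0.240 over 36 pairs of other pools and groups. Each group of sex and genotype had been centred on its own 3 mice. The second median is therefore tied to the first and is no separate baseline. Neighbours in an order of levels were tested by exact sign-flip permutation on log2(CPM + 1). DESeq2 1.42.0 and edgeR were alternatives. Where labels name no separate litters, p-values cover the spread between these mice. The members and lists were chosen with earlier results of these data known. Genes named were the members, list genes called for genotype, the 3 list genes at each end of a class comparison and the 3 closest profiles, and 1 gene that this rule names is not reported here, so some ends are incomplete. Single values, such as the nucleus that held most *Grm3* UMIs, were chosen after being seen. Gene spans are from GENCODE vM21 on GRCm38.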

Additional observations from a re-analysis of the deposited data

Results flagged for a closer look

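Within the mice of 1 genotype, the mouse at an end was set against the others by Dixon's ratio at its 95% critical value in 82 groups that passed the count filter. Of these, 76 groups held 6 mice and 6 groups, of ependymal nuclei or fibroblasts, held 5, each with its own critical value. In 7 groups of 6 a mouse stood beyond it, where chance flags about 1 in 20 groups. Values here are CPM scaled by the TMMwsp factors. *Grm5* in the SOD1G93A female of pool A was at 1189 CPM in astrocytes, beside 533 to 627 in the other 5 mice, and at 438 CPM in endothelial nuclei, beside 142 to 209. The SOD1G93A female of pool C was low, with *Grm5* at 439 CPM in OPCs (6 UMIs in 2 nuclei) beside 1781 to 2652, and *Grm3* at 269 CPM in oligodendrocytes beside 537 to 760. *Grm5* in the Schwann or meningeal nuclei was at 648 CPM in the SOD1G93A male of pool B, beside 1160 to 1307. *Grm7* in endothelial nuclei was at 552 CPM in the WT female of pool B, beside 915 to 1217. *Grm2* in neurons was at 1.69 CPM in the WT female of pool C, beside 0.631 to 0.898.

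The excitatory minus inhibitory contrast differed between dorsal and ventral neurons, with log2 differences of -1.96 for *Grm3*, -1.30 for *Grm4*, -0.75 for *Grm5*, -0.73 for *Grm7* and -0.76 for *Grm8*, each past the exact permutation test over mice given above.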

How the results depend on the processing

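Of 3627 values of single members under other settings, 3288 kept their direction and side of the threshold and 316 changed sign but passed in neither setting. Of the rest, 12 newly passed, 5 no longer passed and 6 changed sign where the value passed in at least 1 of the settings. The 316 were differences of genotype, sex or their interaction, except 2 of *Grm8* in excitatory against inhibitory neurons. The count of members called between genotypes in cell types went from 0 to 1 with DESeq2, with no filter on low counts, with a minimum count of 30 and with eBayes without the robust option, and in each case the call was *Grm5* in motor neurons. Of all pairs 322 of 68984, 688 of 196082, 268 of 38820 and 368 of 68984 were called there, beside 392 of 68984 in the main fit. The range was 0 to 1 on leaving out each mouse, for genotype and for sex, where *Grm3* in the nuclei labelled microglia passed without the WT female of pool C (-0.61, FDR = 0.0805) or the SOD1G93A male of pool C (-0.60, FDR = 0.0699). With no filter the genotype by sex count was 1 (*Grm5* in motor neurons, -1.95, FDR = 0.0657). Of all gene and type pairs 28 of 196082 were called there, beside 4 of 68984 in the main fit. Leaving out a mouse gave 0 in the sub-types and for genotype by sex, 5 for astrocytes, motor neurons and dorsal neurons, and 4 for OPCs and excitatory neurons. Without the pool or mouse as a replicate block the counts were 0 for genotype, sex and genotype by sex, 5, 4, 5, 5 and 4 for the classes in the order astrocytes, OPCs, motor neurons, dorsal and excitatory, and the blocked fits changed no call. OPCs and oligodendrocytes differed in 2 of 3 members in nuclei without neuron-marker UMIs, where *Grm7* was at -0.055. Over all genes 498 of 923 were called in that setting. Motor neurons and other neurons differed in 3 of 5 members in SOD1G93A mice alone. Over all genes 2675 of 11289 were called there, beside 4498 of 11272 with all mice. In WT mice alone 4168 of 12736 genes were called, and *Grm3* was the member that did not pass. Neighbours in the orders gave 0 pairs past the threshold with WT mice alone, 15 with a pseudocount of 10 and 11 on TMMwsp-scaled CPM. *Grm8* was at 0.018 in dorsal against ventral inhibitory neurons and at -0.19 in dorsal excitatory against inhibitory neurons. In ventral excitatory against inhibitory neurons *Grm3* was at 0.20, *Grm7* at 0.42 and *Grm5* at 0.29. The cause of these differences between settings was not tested.

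Low counts limit *Grm2* in every type. The number of nuclei limits motor neurons, fibroblasts and ependymal nuclei, which had 67, 46 and 93 nuclei.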

Other observations

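The glial sub-clusters labelled by the study did not hold the members evenly, and these values are a description with no test. In the 5 oligodendrocyte sub-clusters, numbered 0 to 4, *Grm3* averaged 787, 119, 1010, 679 and 200 CPM over the 12 mice. The mice ranged from 47.2 to 184 CPM in sub-cluster 1 and from 521 to 1660 CPM in sub-cluster 2. These sub-clusters were picked as the lowest and highest after the values had been seen. They had been defined from expression in the same nuclei, and how many of all genes separate them was not counted. *Grm7* was at 2400 CPM in sub-cluster 2 and at 242 CPM in sub-cluster 1. In the 5 astrocyte sub-clusters *Grm5* averaged 405, 396, 1537, 312 and 422 CPM and *Grm7* 336, 209, 1875, 825 and 534 CPM, both highest in sub-cluster 2, while *Grm3* lay between 176 and 269 CPM. The neuron markers also differed between these sub-clusters. In the astrocyte sub-clusters 0 to 4 they summed to 612 ± 158, 344 ± 67.4, 1861 ± 485, 616 ± 359 and 1393 ± 817 CPM (SD, n = 12 mice), and in the oligodendrocyte sub-clusters to 578 ± 350, 321 ± 133, 1402 ± 328, 756 ± 404 and 818 ± 661 CPM. Their part in the levels of the members was not tested.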
